A study of Homo sapiens with 8 samples.

Results

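The genes described here are the targets, enzymes and regulators of the NRF2 antioxidant program, taken as every probe annotated to 1 of 33 listed gene symbols. Of the 33 genes, 27 have a probe in the authors' table and all 27 were tested, out of 10964 genes tested in all. AKR1B1, GCLM, GSR, GSTM3, FTH1 and OSGIN1 were not analysed here. RNA came from A549, an established human lung adenocarcinoma line, and was read on Illumina expression beadchips, where each probe gives 1 fluorescence intensity. The 4 tested arrays hold cells sampled at 24 h of 100 nM dexamethasone, a synthetic agonist of the glucocorticoid receptor, and the 4 arrays they are set against hold cells sampled at 0 h. The cells of all 8 arrays carry shGLP, a hairpin that targets GLP, a histone methyltransferase whose gene is EHMT1. The treatment label of the 0 h arrays also names 100 nM dexamethasone, and the time label alone was taken to part the groups. Cells grew in hormone-depleted medium before treatment. The sources used here do not say whether the 0 h cells received vehicle, whether the hairpin line is 1 clone, or whether replicates were separate cultures. The p-values therefore measure the spread between these samples, which may be technical. No array of 24 h without hormone was analysed, so time in culture and dexamethasone cannot be told apart.

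NRF2, the protein of NFE2L2, is a transcription factor that KEAP1 holds in the cytoplasm and presents for degradation until oxidants or electrophiles modify KEAP1. Freed NRF2 pairs with a small MAF protein at antioxidant response elements and turns on genes for glutathione and thioredoxin chemistry, NADPH supply, iron storage and the detoxification of quinones and carbonyls. A549 cells are known for a loss-of-function mutation of KEAP1, so NRF2 is active in them without added stress.

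The antioxidant response element core was searched for as TGACNNNGC on both strands of RefSeq promoter windows (GRCh38.p14), running from 250 bases before each gene's start to 50 after it. Windows were at hand for 26 of the 33 genes. The core stood in 6 of these 26 windows (23.1%) and in 4687 of 35116 windows in all (13.3%). The 6 genes are GCLM, GPX2, GSTP1, TXNRD1, PGD and ME1. The palindromic glucocorticoid response element, searched as GNACA and TGTNC with 3 bases of any kind between them, stood in 0 of the 26 windows and in 137 of the 35116 (0.39%). PGD and GPX2 are shown because their arrays lay on opposite sides of the 0 h arrays, TXNRD1 because its window holds 2 cores, and GSTP1 because its core also contains the AP-1 motif TGACTCA. The ME1 window, not shown, shares both traits, with 2 cores and TGACTCA within a core. The windows are PGD at chr1:10398814-10399113 (plus strand), GPX2 at chr14:64942696-64942995 (minus strand), TXNRD1 at chr12:104215529-104215828 (plus strand) and GSTP1 at chr11:67583562-67583861 (plus strand). Each reads 5′ to 3′ in the direction of the gene, with the core in capitals on whichever strand it matched.
PGD: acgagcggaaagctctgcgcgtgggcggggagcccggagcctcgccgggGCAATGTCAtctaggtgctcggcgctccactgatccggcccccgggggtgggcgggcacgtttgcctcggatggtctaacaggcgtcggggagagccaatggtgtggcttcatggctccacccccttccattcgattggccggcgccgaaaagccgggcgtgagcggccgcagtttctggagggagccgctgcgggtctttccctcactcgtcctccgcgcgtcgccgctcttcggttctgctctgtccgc
GPX2: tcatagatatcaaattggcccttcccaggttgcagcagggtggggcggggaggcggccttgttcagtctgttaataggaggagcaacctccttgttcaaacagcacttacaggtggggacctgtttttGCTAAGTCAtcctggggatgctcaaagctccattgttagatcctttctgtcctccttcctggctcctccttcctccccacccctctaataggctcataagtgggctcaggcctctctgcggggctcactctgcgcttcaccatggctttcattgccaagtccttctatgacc
TXNRD1: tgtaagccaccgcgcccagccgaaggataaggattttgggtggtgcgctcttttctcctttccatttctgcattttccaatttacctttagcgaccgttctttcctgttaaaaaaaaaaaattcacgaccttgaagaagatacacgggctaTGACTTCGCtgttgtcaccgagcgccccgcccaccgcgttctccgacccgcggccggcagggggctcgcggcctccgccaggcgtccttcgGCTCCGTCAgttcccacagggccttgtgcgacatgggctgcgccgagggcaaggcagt
GSTP1: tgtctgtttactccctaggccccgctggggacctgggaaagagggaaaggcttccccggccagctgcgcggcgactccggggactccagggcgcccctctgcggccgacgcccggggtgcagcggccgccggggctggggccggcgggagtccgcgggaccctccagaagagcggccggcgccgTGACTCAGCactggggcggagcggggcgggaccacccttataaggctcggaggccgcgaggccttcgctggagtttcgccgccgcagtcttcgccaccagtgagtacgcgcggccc
The core begins 201 bases before the start in PGD, 122 in GPX2 and 66 in GSTP1. In TXNRD1 the 2 cores begin 99 and 8 bases before it. A match describes letters in the window and is not evidence of binding. Sequence outside the windows was not searched, so a window without either element does not mean a gene without it.

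Between 13897 and 14797 of 22011 probes were detected per array, and 16 to 65 beads stood behind each tested value of a listed gene. EHMT1, the hairpin's target, read log2 5.66 to 5.78 at 24 h, against 5.11 to 5.55 at 0 h (adjusted p = 0.135). Every 24 h array detected it but only 1 of the 4 at 0 h, so most of its 0 h values were not above background. Depletion cannot be read from it because every array carries the hairpin. All 5 epithelial markers of the line were detected on every 24 h array, and 4 of the 5 on every 0 h array. Of 5 leukocyte markers CD14, CD68 and ITGB2 were detected on all 8 arrays and PTPRC and CD3E on none, and their summed signal ran from log2 8.88 to 9.61 at 24 h, against 9.44 to 9.73 at 0 h. Of 5 endothelial markers PECAM1 was detected on all 8 arrays, KDR on every 24 h array and 3 of 4 at 0 h, and VWF, CDH5 and TEK on none, with a sum of 7.78 to 8.17 at 24 h, against 7.96 to 8.10 at 0 h. No tested leukocyte or endothelial marker passed. KRT8, KRT18, CPS1 and CDH1 rose at 24 h, and the summed signal of the 5 epithelial markers ran from log2 14.99 to 15.43 at 24 h, against 14.02 to 14.39 at 0 h. Of the 5 fibroblast markers DCN rose and COL1A1 fell, COL1A2 and PDGFRB were detected on no array, and the sum ran from 7.93 to 8.68 at 24 h, against 7.65 to 8.74 at 0 h. The part of these markers in the results below was not tested. In bulk RNA, fewer cells of a kind and less RNA per cell cannot be told apart.

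Many of these genes gave very bright signals. The average over the 8 arrays was above log2 14 for 16 of the 27 tested genes (59.3%) and for 249 of all 10964 genes (2.27%). Probes differ in how brightly they report a transcript, so these levels do not rank transcript amounts. Before normalization, 5 of the 27 genes stood above 50% of the array's highest signal on every array (18.5%), against 34 of all genes tested (0.31%). They are FTL, AKR1C2, AKR1B10, AKR1C3 and ALDH3A1. The FTL probe lay at 93.7% to 100% of that maximum and was itself the brightest probe on 2 arrays.

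**Figure D1:**
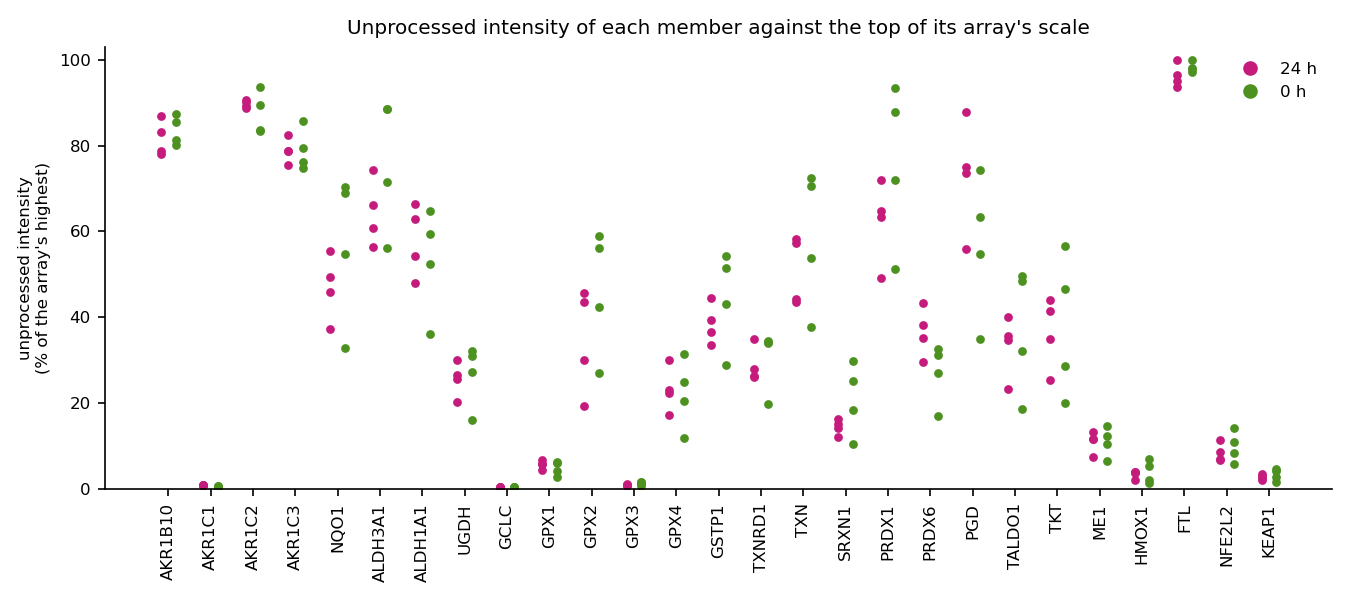
Raw intensity of each tested gene's probe as a percent of the highest signal on the same array (vertical), with genes in role order along the horizontal axis and each array a point, 24 h left of 0 h. FTL lies at 93.7% to 100%, and AKR1C2, AKR1B10, AKR1C3 and ALDH3A1 stay above 50% on all 8 arrays.

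Of the 27 genes, SRXN1 fell at 24 h and none rose at an adjusted p under 0.05 (limma across all tested probes, Benjamini-Hochberg), against 10.2% of all genes called in either direction, 4.76% higher and 5.39% lower. At an unadjusted p under 0.05 the count was 9 of 27, with 3 estimates above 0 and 6 below, against 22.9% of all genes. The 24 h and 0 h arrays did not overlap for 10 of the 27 genes (37%), 4 higher and 6 lower at 24 h, against 17.4% of all genes (8.26% higher and 9.1% lower). For 0 of the 27 the estimate passed 1 on the log2 scale in either direction, against 4.67% of all genes, and the median over the list was -0.07, against -0.01 over all genes. With the replicate number as a block, 4 of the 27 genes passed, against 17.2% of all genes (8.1% higher and 9.14% lower). PRDX6 and PGD rose in that fit, and SRXN1 and GPX3 fell. In all 4 same-numbered pairs the 24 h array lay on 1 side of its 0 h partner for 17 genes (63%), 5 higher and 12 lower, against 41.2% of all genes (19.5% higher and 21.7% lower).

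**Figure D2:**
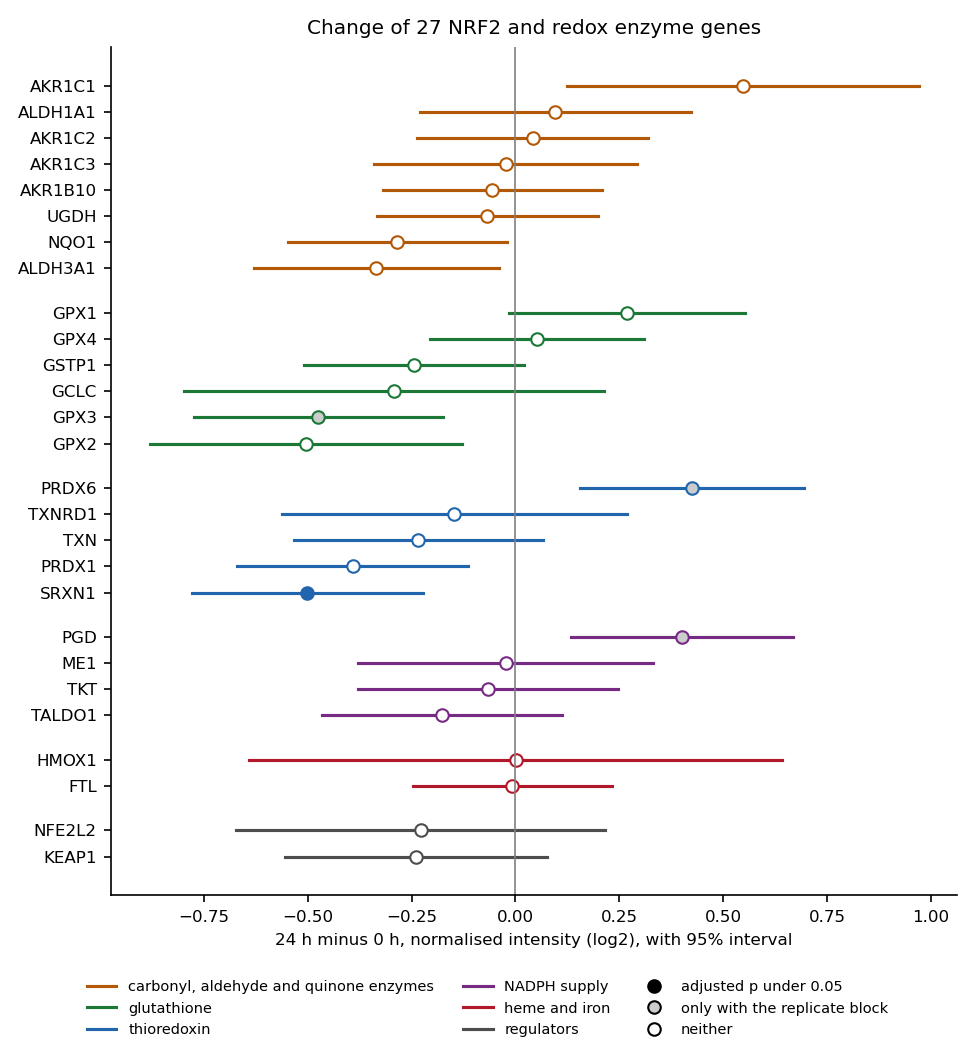
Difference of 24 h minus 0 h (log2) for the 27 tested genes by role, with 95% confidence intervals from limma. Filled points passed at an adjusted p under 0.05 and grey points passed only with the replicate block. SRXN1 (-0.50) is the gene with an adjusted p under 0.05, and estimates run from -0.50 for GPX2 and SRXN1 to 0.55 for AKR1C1.

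Neither tested regulator passed. NFE2L2, which encodes NRF2, read log2 12.39, 12.65, 12.06 and 11.99 at 24 h (replicates 1 to 4, as in all lists of values), against 12.63, 12.74, 12.61 and 12.02 at 0 h. Each 24 h array lay below its numbered partner, but the groups overlapped, and the difference was -0.23 ± 0.20 (SE; adjusted p = 0.58). KEAP1, the adaptor that hands NRF2 to a ubiquitin ligase, read 10.65, 10.30, 10.66 and 10.73 at 24 h and 10.80, 10.62, 10.88 and 10.98 at 0 h. The 24 h arrays again sat below their partners with overlap, at -0.24 ± 0.14 (adjusted p = 0.373). A second KEAP1 probe gave -0.21 (adjusted p = 0.572), and another was detected on no array.

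The thioredoxin group held the gene that passed. SRXN1, sulfiredoxin, which repairs overoxidized peroxiredoxins, read log2 13.25, 13.10, 13.001 and 12.99 at 24 h, against 13.44, 13.54, 13.73 and 13.63 at 0 h. Every 24 h array lay below every 0 h array. Levels averaged 13.08 ± 0.12 at 24 h and 13.58 ± 0.13 at 0 h (SD, n = 4 each), a difference of -0.50 ± 0.13 (SE) and 1.41-fold lower at 24 h (limma, adjusted p = 0.0305). The call did not hold without replicate 2, 3 or 4 of either time (adjusted p from 0.0585 to 0.0944 over those 6 fits), nor within slide 1 (0.336) or slide 2 (0.075) alone.

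PRDX6, a peroxiredoxin that also acts on oxidized phospholipids, lay on the other side. It read log2 14.47, 14.49, 14.39 and 14.32 at 24 h, against 14.10, 14.10, 13.85 and 13.92 at 0 h. The groups did not overlap, and the difference was 0.43 ± 0.12 (SE), or 1.34-fold (adjusted p = 0.0524, and 0.0244 with the replicate block). PRDX1, an abundant cytosolic peroxiredoxin and a substrate of SRXN1, read 15.16, 15.33, 15.11 and 15.16 at 24 h and 15.44, 15.50, 15.76 and 15.64 at 0 h. All 24 h arrays lay below all 0 h arrays on both of its probes, with -0.39 ± 0.13 (adjusted p = 0.0811) on the brighter and -0.34 ± 0.13 (adjusted p = 0.156) on the other. TXN, thioredoxin itself, read 15.02, 14.69, 14.75 and 15.09 at 24 h, against 15.17, 15.12, 14.99 and 15.21 at 0 h. Its groups overlapped (-0.23 ± 0.14, adjusted p = 0.356). TXNRD1, the NADPH-dependent reductase of thioredoxin, read 14.31, 14.36, 13.62 and 13.95 at 24 h and 14.33, 14.43, 13.97 and 14.09 at 0 h. Its values spread more between replicates than between times, and its 2 probes differed in sign at -0.15 ± 0.19 (adjusted p = 0.718) and 0.13 ± 0.18 (adjusted p = 0.736).

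Of the 4 tested genes of NADPH supply, 0 passed without the replicate block, and only the arrays of PGD did not overlap. PGD, the second NADPH-producing dehydrogenase of the pentose phosphate pathway, read log2 15.33, 15.51, 15.59 and 15.37 at 24 h, against 15.06, 15.14, 15.06 and 14.94 at 0 h. The lowest 24 h array lay above the highest 0 h array. The difference was 0.40 ± 0.12 (SE), or 1.32-fold, with an adjusted p of 0.0655, and 0.0338 with the replicate block. TKT, the transketolase of the same pathway, read 14.24, 14.37, 14.40 and 14.51 at 24 h and 14.34, 14.20, 14.69 and 14.55 at 0 h. TALDO1, its transaldolase, read 14.13, 14.34, 14.26 and 14.33 at 24 h and 14.25, 14.36, 14.53 and 14.63 at 0 h. The groups overlapped in both genes, with -0.07 ± 0.14 for TKT (adjusted p = 0.845) and -0.18 ± 0.13 for TALDO1 (adjusted p = 0.495). ME1, cytosolic malic enzyme, differed by -0.02 ± 0.16 (adjusted p = 0.957).

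In the glutathione group no gene passed in the fit without a block. Estimates were below 0 for 4 of 6 genes, against 5616 of all 10964 genes. GPX3, the secreted glutathione peroxidase, read log2 8.91, 8.78, 8.66 and 9.04 at 24 h, against 9.36, 9.18, 9.25 and 9.51 at 0 h. Every 24 h array lay below every 0 h array, and the difference was -0.47 ± 0.14 (SE), with 1.39-fold less signal at 24 h (adjusted p = 0.0521, and 0.0168 with the replicate block). GPX2, a peroxidase best known from gut epithelium, read 13.88, 14.13, 14.39 and 14.68 at 24 h and 14.77, 14.78, 14.73 and 14.82 at 0 h. The 0 h arrays lay close together, while the 24 h arrays spread widely below them. Its difference was -0.50 ± 0.17 (adjusted p = 0.0972), with -0.77 on slide 1 and -0.24 on slide 2. GPX1, the cytosolic peroxidase, read 11.78, 11.66, 11.69 and 11.70 at 24 h, against 11.60, 11.31, 11.26 and 11.59 at 0 h. Its 24 h arrays lay just above all 0 h arrays, at 0.27 ± 0.13 (adjusted p = 0.252). GPX4, which reduces lipid peroxides in membranes, read 13.72, 13.69, 13.86 and 13.69 at 24 h and 13.62, 13.72, 13.79 and 13.62 at 0 h. These groups overlapped, with 0.05 ± 0.12 (adjusted p = 0.851). GSTP1, a glutathione transferase, read 14.67, 14.43, 14.42 and 14.45 at 24 h and 14.81, 14.79, 14.64 and 14.70 at 0 h. Its replicate 1 at 24 h reached into the 0 h range, at -0.24 ± 0.12 (adjusted p = 0.262). GCLC, the catalytic subunit that starts glutathione synthesis, differed by -0.29 ± 0.23 (adjusted p = 0.523). Its probe was dim, averaging log2 6.86 at 24 h and 7.16 at 0 h. Before normalization it lay at 0.25% to 0.44% of the array's highest signal.

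The carbonyl, aldehyde and quinone enzymes had 8 tested genes, of which 0 passed. Estimates were below 0 for 5 of the 8, against 5616 of all 10964 genes. AKR1C1, a hydroxysteroid and carbonyl reductase, read log2 8.58, 8.63, 8.58 and 8.64 at 24 h, against 8.50, 8.29, 7.86 and 7.58 at 0 h. The 24 h arrays were nearly equal, and the 0 h arrays spread over a wide range below them. The difference of 0.55 ± 0.19 (SE; adjusted p = 0.108) was 0.21 on slide 1 and 0.88 on slide 2, and it passed without replicate 1 at 0 h (adjusted p = 0.0347). The AKR1C genes are similar in sequence, so their probes may share signal, which was not tested.

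NQO1, the quinone reductase often used as a readout of NRF2, read 14.82, 14.91, 14.71 and 14.71 at 24 h, against 15.02, 15.13, 14.96 and 15.17 at 0 h. Its 24 h arrays all lay below its 0 h arrays, at -0.28 ± 0.12 (adjusted p = 0.184). A dimmer NQO1 probe overlapped between the times, at -0.42 ± 0.16 (adjusted p = 0.144, and 0.028 with the replicate block). ALDH3A1, an aldehyde dehydrogenase of epithelia, read 15.41, 15.15, 14.9997 and 15.36 at 24 h and 15.52, 15.48, 15.58 and 15.68 at 0 h. These arrays did not overlap either, at -0.33 ± 0.13 (adjusted p = 0.161).

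Of the brightest genes of the group, AKR1C2, a dihydrodiol and steroid reductase, read 15.75, 15.78, 15.68 and 15.70 at 24 h and 15.81, 15.71, 15.78 and 15.44 at 0 h. AKR1B10, a retinal and aldehyde reductase, read 15.61, 15.68, 15.51 and 15.50 at 24 h and 15.77, 15.65, 15.54 and 15.56 at 0 h. Both overlapped, with intervals of -0.24 to 0.32 for AKR1C2 and -0.32 to 0.21 for AKR1B10 (95%). AKR1C3, a prostaglandin and steroid reductase, ALDH1A1, a retinal dehydrogenase, and UGDH, which makes UDP-glucuronic acid, differed by -0.02, 0.10 and -0.07 with overlap.

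In the heme and iron group, HMOX1, heme oxygenase and a classic stress-induced NRF2 target, read log2 10.66, 11.04, 10.78 and 11.10 at 24 h, against 10.47, 10.24, 11.12 and 11.74 at 0 h. Replicates 1 and 2 were higher at 24 h and replicates 3 and 4 were lower. The averages were 10.89 ± 0.21 at 24 h and 10.89 ± 0.68 at 0 h (SD, n = 4 each), and the interval of the difference ran from -0.64 to 0.64. FTL, the ferritin light chain that stores iron, read 15.92, 15.88, 15.88 and 15.83 at 24 h and 15.87, 15.92, 15.88 and 15.87 at 0 h. The groups overlapped, with an interval of -0.25 to 0.23, on a probe at or near the highest signal of every array. Quantile normalization gives probes of the same rank the same value on every array. How far this, or the top of the scale, shaped FTL's small difference was not tested. That difference is therefore not read as a steady transcript level.

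**Figure D3:**
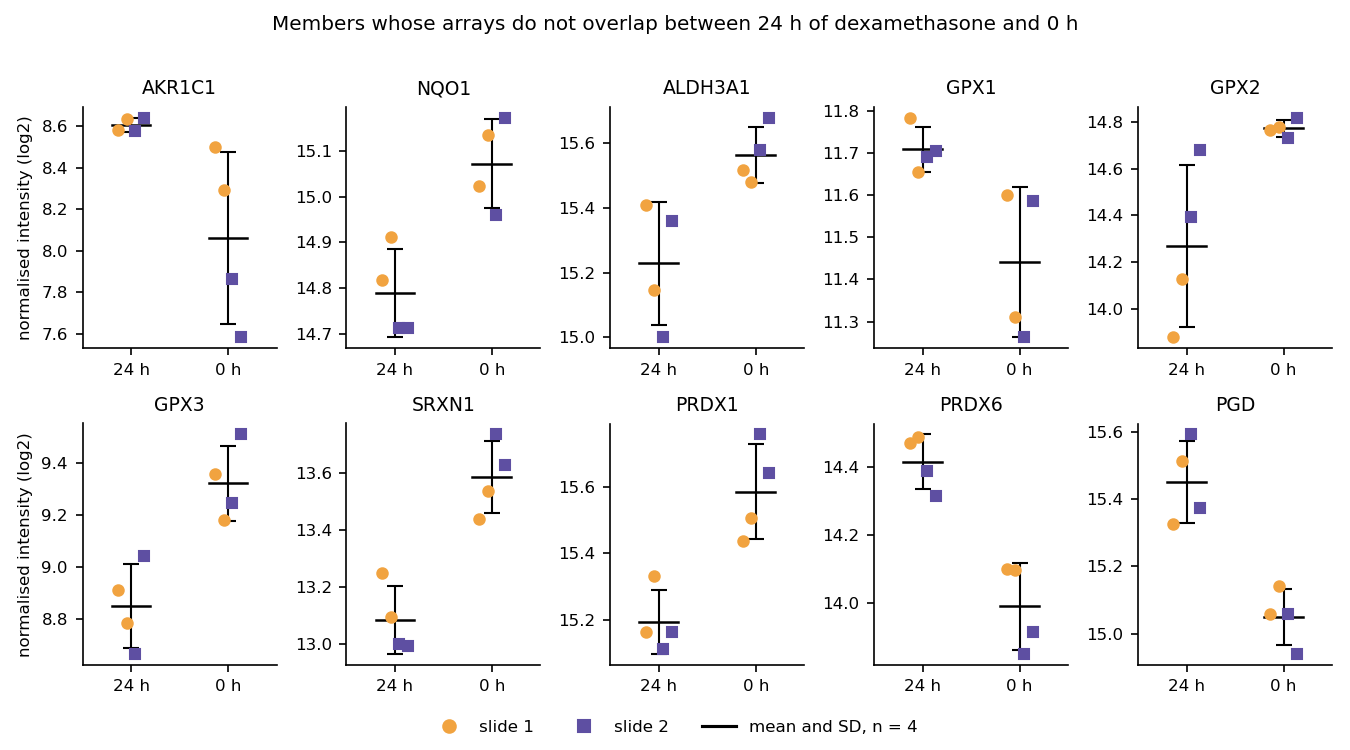
Normalized log2 level of the 10 genes whose 24 h and 0 h arrays do not overlap, each point 1 array (circles slide 1, squares slide 2), with 24 h left of 0 h, bars at the mean and SD (n = 4), and axes that do not start at 0. SRXN1, PRDX1 and GPX3 have all 24 h points below all 0 h points, and PRDX6 and PGD have all 24 h points above them.

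The number that opens each array's code was taken as its slide. Replicates 1 and 2 of both times share 1 such slide and replicates 3 and 4 another, so each slide gives its own difference. The median over the 27 genes was -0.07 on slide 1 and -0.18 on slide 2, and 5 of the 27 had opposite signs on the 2 slides, against 3625 of all 10964 genes. SRXN1 differed by -0.32 on slide 1 and -0.68 on slide 2, PRDX1 by -0.22 and -0.56, GPX3 by -0.42 and -0.53, PRDX6 by 0.38 and 0.47, and PGD by 0.32 and 0.48. Their arrays do not overlap between the times, so a shared sign on both slides follows from that and adds nothing to it. HMOX1, whose arrays overlap, differed by 0.50 on slide 1 and -0.49 on slide 2. A test of slide 2 minus slide 1, chosen after the data were seen, called 0 of the 27 genes (limma), with AKR1C1 and HMOX1 under an unadjusted p of 0.05. Over all 10964 genes it called 0, with 844 under that unadjusted p.

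**Figure D4:**
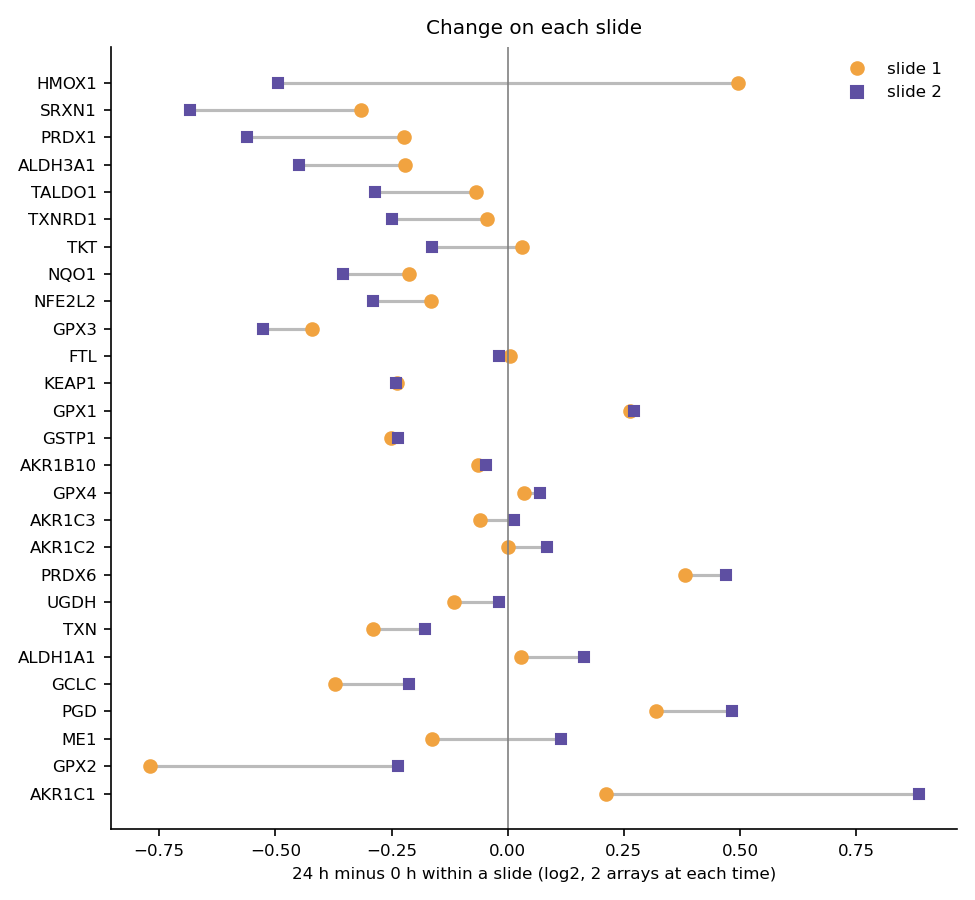
Difference of 24 h minus 0 h (log2) along the horizontal axis for each of the 27 tested genes, with slide 1 as circles and slide 2 as squares joined by a line. HMOX1 lies at 0.50 on slide 1 and -0.49 on slide 2, and SRXN1, PRDX1 and GPX3 lie below 0 on both.

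A further 78 genes of NRF2 and redox biology were listed, of which 61 were tested. Of these 61, 4 rose and 3 fell at 24 h (11.5%), beside 10.2% of all genes, and their median was -0.05. GLRX, glutaredoxin, read log2 12.33, 12.84, 13.32 and 13.14 at 24 h, against 10.91, 11.86, 12.16 and 11.81 at 0 h. Every 24 h array lay above every 0 h array, at 1.22 ± 0.28 (SE; 2.34-fold, adjusted p = 0.0205). MGST1, a microsomal glutathione transferase, rose by 0.73 ± 0.17 (adjusted p = 0.023) on its brightest probe. Its other probes passed in the same direction, at 0.93 ± 0.12 (limma, adjusted p = 0.000792) and 0.81 ± 0.13 (adjusted p = 0.00267). ALDH2, mitochondrial aldehyde dehydrogenase, rose by 0.88 ± 0.19 (adjusted p = 0.0158), and EPHX1, microsomal epoxide hydrolase, by 0.69 ± 0.18 (adjusted p = 0.0404).

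Of the 3 that fell, CBR3, a carbonyl reductase, read 8.99, 8.47, 8.90 and 9.12 at 24 h and 9.78, 9.63, 10.31 and 10.20 at 0 h. The groups did not overlap, and CBR3 fell 2.16-fold, a difference of -1.11 ± 0.20 (adjusted p = 0.00515). SLC7A11, the cystine importer that feeds glutathione synthesis, read 9.38, 9.52, 9.17 and 9.66 at 24 h and 10.17, 10.30, 9.90 and 10.31 at 0 h, again with no overlap. Its difference was -0.74 ± 0.15 (adjusted p = 0.0114). SQSTM1, the autophagy adaptor p62, which binds KEAP1, fell by 0.66 ± 0.17 on the log2 scale (adjusted p = 0.0356). CBR3 and SLC7A11 passed without any single array. The other five did not: GLRX was lost without 24 h replicate 3 or 4 and ALDH2 without 24 h replicate 3. MGST1, on its brightest probe, was lost without replicate 1 or 2 at 24 h or replicate 3 or 4 at 0 h. EPHX1 passed without replicate 1 at 24 h or replicate 3 at 0 h, and SQSTM1 without replicate 4 at 24 h, and neither passed without any other array. With the replicate block 8 of the 61 rose and 5 fell, beside 8.1% of all genes higher and 9.14% lower in that fit (17.2% in all).

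**Figure D5:**
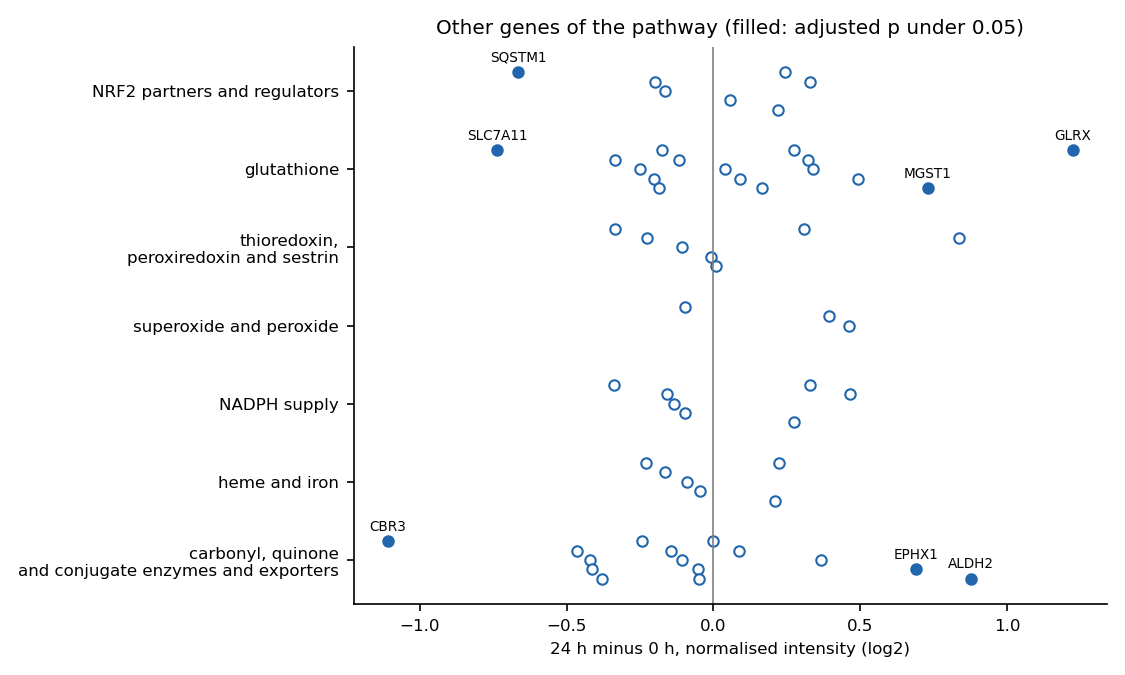
Difference of 24 h minus 0 h (log2) along the horizontal axis for the 61 further NRF2 and redox genes, 1 circle a gene, grouped by role. The 7 filled and named circles passed: GLRX, ALDH2, MGST1 and EPHX1 lie above 0, and SQSTM1, SLC7A11 and CBR3 (-1.11) lie below.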

How the data were processed

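Total RNA of 8 arrays (4 at 24 h, 4 at 0 h) was analysed. The deposited unprocessed table gives each probe's mean bead intensity (linear scale), bead number and detection p-value on every array, per the file headers. The authors' deposited normalized table holds log2 values for 22011 probes. The submitters' processing notes name limma, and the sources used here give no steps, scanner software or build.

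Intensities were corrected with nec (limma 3.58.1, R 4.3.3, offset 16), followed by a log2 transform and quantile normalization of the 22011 probes. Testing was restricted to the 14533 probes detected at p under 0.05 on 4 or more arrays. The 24 h arrays were set against the 0 h arrays with lmFit and eBayes (two-sided), and adjusted p-values (Benjamini-Hochberg over the tested probes) were read at 0.05. A gene is its brightest tested probe, and 5 of the 27 genes have more than 1. Symbols come from the platform annotation, updated to the RefSeq symbol of the annotated gene identifier where RefSeq lists it. A probe annotated with several symbols was treated as having none. On that basis 19759 probes have 1 symbol and 2252 have none. The number of arrays limits the precision. The script was tested on simulated data.

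The members and lists were chosen with earlier results of these data known. Values per array are given for called genes, genes whose arrays do not overlap, genes called with the replicate block, and up to 2 more per role by brightness. Same-numbered arrays deviated together (r = 0.465, 0.456, 0.367 and 0.456 over probes). The numbers were therefore taken to pair the arrays in the replicate block fit and in the counts of same-numbered pairs. Differently numbered arrays gave r from -0.54 to 0.19. Deviations were taken from the mean of each time, so these values are not independent of the same-numbered ones. The fit behind the main calls, standard errors and intervals is unpaired. Alternatives in background correction, normalization, filter, probe choice, slide, replicate block, variance estimate and left-out arrays were tried. Promoter windows are RefSeq's and were available for 26 of the 33 genes.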

Additional observations from a re-analysis of the deposited data

Results flagged for a closer look

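Of 64 groups of 4 arrays examined over the probes of the 27 genes, 5 held an array far from the other three, and chance gives about 1 in 20. The dimmer NQO1 probe read log2 10.17 in 24 h replicate 2, with the others at 9.67 to 9.72. KEAP1 read 10.30 in the same array, with the others at 10.65 to 10.73. GPX4 read 13.86 in 24 h replicate 3 (others 13.69 to 13.72) and GSTP1 14.67 in 24 h replicate 1 (others 14.42 to 14.45). FTL read 15.92 in 0 h replicate 2, with the others at 15.87 to 15.88. Its probe was the brightest of that array, where quantile normalization sets the value.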

How the results depend on the processing

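Among the 27 genes, 0 rose and 1 fell. The counts were 2 and 3 with normexp (offset 50), without background correction and with slide as a block, 1 and 2 with the authors' values, with detection on all 8 arrays and with the mean of a gene's probes, 2 and 2 without a filter, and 2 and 5 with robust variance. Cyclic loess called 1 and 1, and slide 1 only and slide 2 only 0 and 0. The replicate block called 2 and 2 of the 27, 8 and 5 of the 61 further genes (4 and 3 without it) and 888 and 1002 of all genes, against 522 and 591. For the 61, slide as a block called 8 higher and robust variance 7, slide 1 only 0 and 0, and slide 2 only 2 and 1. Over all genes slide 1 only called 241 and 261, and slide 2 only 220 and 196. Leaving out 1 array gave 0 to 1 higher and 0 to 1 lower among the 27, 1 to 3 and 2 to 3 among the 61, and 357 to 492 and 413 to 540 over all genes.

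Signs turned for 6 genes, none of which passed. HMOX1 was at 0.0007, and gave -0.00275 with normexp, -0.00381 without background correction, -0.00295 with the authors' values, -0.000610 with cyclic loess, -0.0391 with median scaling, -0.49 with slide 2 only, and -0.22 to 0.28 without 1 array. AKR1C2 gave -0.0049 with cyclic loess, -0.0433 with median scaling and -0.0396 to 0.0832 without 1 array. Slide 1 only turned TKT to 0.0306 and FTL to 0.0041, and slide 2 only turned AKR1C3 to 0.0131 and ME1 to 0.12. Without 1 array TKT ran from -0.15 to 0.0160, FTL from -0.0218 to 0.00739, AKR1C3 from -0.11 to 0.0538 and ME1 from -0.14 to 0.0637. Of the 21 fits beside the reported one, SRXN1 passed in 13, PRDX6 in 10, GPX3 in 8 and PGD in 6. The causes were not tested. How far signals near an array's highest value, among them FTL, the bright AKR genes, ALDH3A1, PRDX1 and PGD, are compressed was not tested. How far quantile normalization evens them out was not tested either.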
